A study of Homo sapiens with 8 samples.

Results

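The TGF-beta superfamily ligands described here are 10 genes taken by symbol from the 38010 gene IDs of the deposited count table: TGFB1, TGFB2, TGFB3, GDF15, INHBA, INHBB, INHBE, BMP2, BMP4 and the activin antagonist FST. Their mRNA was measured by bulk RNA-seq in confluent cultures of Ea.hy926, a human hybrid of umbilical vein endothelium and the lung carcinoma line A549. The parental line (Eahy) was compared with its OXPHOS-deficient Rho0 derivative, with 4 biological replicates of each and no other treatment in the labels. Each group is 1 line, and the labels do not say how the Rho0 line was derived, so clonal or culture differences between the lines cannot be told apart from the loss of respiration. The study's stated interest is respiration, autophagy and stress resistance in quiescent cells.

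Ligands of this superfamily are secreted dimers that bind paired type I and type II receptor kinases, which phosphorylate SMAD proteins that move to the nucleus. TGF-betas and activins act mainly through SMAD2 and SMAD3, and bone morphogenetic proteins (BMPs) mainly through SMAD1, SMAD5 and SMAD9. TGF-betas leave the cell in a latent form, bound to LTBP proteins or to cell-surface anchors, and are released by integrins. In endothelium this signalling controls matrix deposition, mesenchymal conversion and vessel stability. GDF15 is a divergent member that acts on the brainstem receptor GFRAL and is widely used as a blood marker of mitochondrial disease.

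The libraries held 11721708 to 37203507 estimated counts. Levels are given as CPM, the depth-scaled count after TMM scaling, and 1 count was worth 0.0225 to 0.0753 CPM. Transcripts of mitochondrial DNA made up 16.1% to 21.4% of the parental libraries and 0.00296% to 0.149% of the Rho0 libraries. The endothelial genes PECAM1 (1085 ± 41.4 and 2116 ± 67.2 CPM in parental and Rho0, SD, n = 4) and CDH5 (1716 ± 92.4 and 1033 ± 32.7 CPM) were abundant in both groups, while CLDN5 stayed under 1 CPM in every library. Of 12 endothelial markers, 11 were tested, and 4 were called higher and 4 lower. KDR rose from 13.8 to 130 CPM, and EMCN fell from 7.8 to 0.40 CPM. These and the marker counts that follow are to be read beside all 15184 genes tested, of which 29.0% were called higher and 25.4% lower. Of 10 blood markers, 3 (CD3E, HBB and MS4A1) had no count, and the 3 tested were called higher: CD68 (104 and 127 CPM in parental and Rho0), LYZ (1.40 and 5.10 CPM) and PTPRC (0.656 and 1.03 CPM). The groups overlapped for CD68 and PTPRC. The 10 fibroblast markers together held 30.7 to 35.2 CPM in the parental and 52.4 to 59.99 CPM in the Rho0 libraries, with LUM and COL3A1 at or near 0. Of the 6 tested, 3 were called higher, FAP (4.57 and 29.2 CPM), ACTA2 (6.99 and 24.8 CPM) and DCN (0.271 and 0.631 CPM). The 2 called lower were THY1 (18.9 and 0.0661 CPM) and PDGFRB (0.760 and 0.411 CPM). DCN passed the filter on low counts through the Rho0 libraries alone and THY1 through the parental libraries alone, so both had to differ. The 10 epithelial markers together held 2619 to 2892 CPM in the parental and 1337 to 2129 CPM in the Rho0 libraries. The part of these marker differences in the results was not tested. In bulk RNA, fewer cells of a type and less RNA per cell cannot be told apart. The balance of GC-rich and GC-poor genes varied between libraries: the median log2 deviation of genes in the upper GC quartile, minus that of the lower, was 0.07 to 0.34 in the parental libraries. It was 0.22, -0.02, -0.20 and -0.64 in Rho0 replicates 1 to 4.

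TGFB2 and INHBA, nearly silent in the parental line, rose strongly in Rho0, and INHBE rose at a low level, whereas the abundant ligands TGFB1 and GDF15 and the scarce TGFB3 did not pass the test. Of the 10 genes, 6 had enough counts to be tested, and 3 of those were called higher and 0 lower. Of the 15184 genes tested, 29.0% were called higher and 25.4% lower, 54.4% in all (quasi-likelihood test of edgeR, adjusted p under 0.05). The filter on low counts asked for 0.411 unscaled CPM in 4 libraries. TGFB2 and INHBE met it in all 4 Rho0 and in 0 parental libraries, and INHBA in 4 Rho0 and 2 parental libraries. Genes that pass only through the group where they are high had to differ, so the count of called genes among the 10 supports nothing by itself. INHBB, BMP2, BMP4 and FST did not pass the filter.

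**Figure D1:**
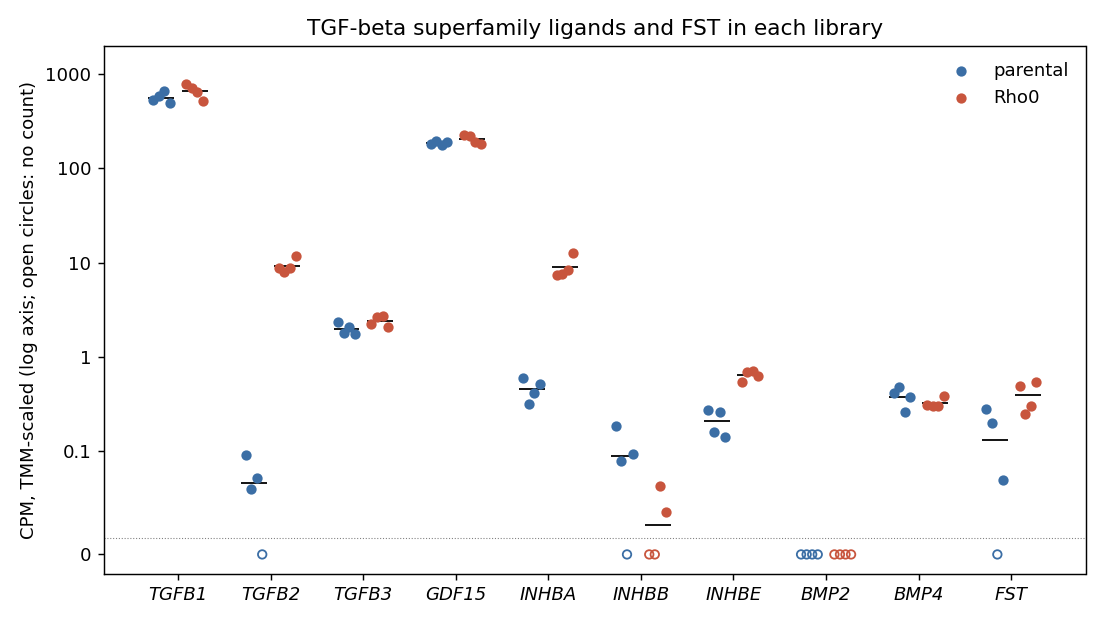
CPM (log axis) of each of the 10 genes in the 4 parental (blue) and 4 Rho0 (red) libraries; short lines are group means and open circles are libraries with no count. TGFB1 and GDF15 lie above 100 CPM in every library, and TGFB2 and INHBA move from under 1 CPM in every parental library to between 7.47 and 12.6 CPM in Rho0.

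TGFB2 (ENSG00000092969, chromosome 1, 218346235 to 218444619, plus strand, GRCh38) encodes the isoform TGF-beta 2, a driver of endothelial-to-mesenchymal conversion in heart development. It had 0.0917, 0.0397, 0.0515 and 0 CPM in parental replicates 1 to 4, which is 2, 1, 1 and 0 counts. In Rho0 replicates 1 to 4 it had 8.72, 7.98, 8.70 and 11.7 CPM. Every Rho0 library lay far above every parental library, and Rho0 replicate 4 was the highest. The fitted log2 fold change was 7.54 (SE 0.32, edgeR adjusted p = 2.2e-08). That SE rests on few parental counts and gives a fold of 113 to 303, narrower than counting error alone. The SE was 0.74 by DESeq2, and leaving out a library put the log2 value between 7.16 and 8.06. With 4 parental counts against 1140 in Rho0, the ratio of the groups was 215, with an exact 95% counting interval of 83.6 to 789. In the deposited log2 table the difference was smaller, at 3.32, and called by limma. Per count, TGFB2 equalled 0.00800 ± 0.00715% of TGFB1 in the parental and 1.46 ± 0.551% in the Rho0 libraries (SD, n = 4), a ratio within each library that does not depend on scaling. In Rho0 replicates 1 to 4 the ratio was 1.108, 1.125, 1.336 and 2.272%, the reverse of their order by the GC measure. The part of base composition in it was not tested.

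INHBA (ENSG00000122641, chromosome 7, 41667168 to 41705834, minus strand) encodes the beta A subunit, whose dimer is activin A. The parental libraries held 0.603, 0.318, 0.412 and 0.511 CPM and the Rho0 libraries 7.47, 7.53, 8.27 and 12.6 CPM. The groups did not overlap, as for 50.9% of all genes tested, and Rho0 replicate 4 again stood above the other libraries. INHBA rose 19.7-fold (log2 fold change 4.30, SE 0.26, edgeR adjusted p = 2.6e-07). Without Rho0 replicate 4 its log2 fold change was 4.07. On the deposited log2 scale the difference was 2.77 and called by limma. A log2 rise of at least 4 was found for 0.856% of the genes tested. The inhibin alpha subunit gene INHA, whose product turns activin subunits into inhibins, held 7 counts over the parental and 14 over the Rho0 libraries and was not tested.

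Sequences before the RefSeq starts of both risen genes are shown beside that of TGFB3, a paralogue of TGFB2 that did not pass the test, so that a reader can see which stress-factor motifs the windows hold. They come from RefSeq (GRCh38.p14), 5′ to 3′ on the strand of the gene, and capitals mark matches to any of 5 motifs searched on both strands. These were the CRE half-site TGACGT of CREB and ATF factors, the ATF4 composite element TGATGNAA, the AP-1 site TGANTCA, the E-box CACGTG and the TEAD site GGAATG. RefSeq entries were found for 8 of the 10 genes, not for INHBE or BMP2. The TGFB2 window is chr1:218345086-218345335, overlaps an exon of the antisense gene TGFB2-AS1 in GENCODE 29, and ends upstream of that annotation's TGFB2 start. The INHBA window, chr7:41703109-41703340, stops where a GENCODE 29 exon of INHBA begins. The TGFB3 window is chr14:75981996-75982245, the second of 2 RefSeq entries for that gene. It lies inside the GENCODE 29 span of TGFB3, as the INHBA window lies inside that of INHBA. The first TGFB3 entry lies upstream of the span.
TGFB2: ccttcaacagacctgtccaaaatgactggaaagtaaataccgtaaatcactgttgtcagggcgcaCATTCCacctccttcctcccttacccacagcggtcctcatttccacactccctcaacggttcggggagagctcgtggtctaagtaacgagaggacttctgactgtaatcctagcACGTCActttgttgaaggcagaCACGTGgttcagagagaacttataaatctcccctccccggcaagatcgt
INHBA: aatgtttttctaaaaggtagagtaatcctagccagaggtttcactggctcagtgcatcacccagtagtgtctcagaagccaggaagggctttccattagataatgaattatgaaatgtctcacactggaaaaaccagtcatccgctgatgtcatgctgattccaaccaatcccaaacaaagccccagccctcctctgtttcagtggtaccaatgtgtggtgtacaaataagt
TGFB3: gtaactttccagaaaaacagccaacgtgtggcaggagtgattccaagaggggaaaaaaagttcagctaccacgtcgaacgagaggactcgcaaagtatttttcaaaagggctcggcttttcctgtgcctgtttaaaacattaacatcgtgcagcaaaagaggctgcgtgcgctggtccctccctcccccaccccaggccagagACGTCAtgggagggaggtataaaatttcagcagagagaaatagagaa

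Counting back from the last base before the start as -1, TGFB2 held a TEAD site at -185 to -180, a CRE half-site at -71 to -66 and an E-box at -49 to -44. The TGFB3 window shown held a CRE half-site at -47 to -42, and that of its other entry, chr14:75983012-75983261, an E-box at -20 to -15, as TGFB2 has. The INHBA window held none of the 5 motifs as spelled. Over all 35116 RefSeq windows of 250 bases, 7.10% held the CRE half-site, 6.34% the E-box and 11.9% the TEAD site. The AP-1 site was in 6.57% and the ATF4 composite element in 3.14%. No match in the TGFB2 window overlaps another. These are letter matches and not sites shown to be bound.

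INHBE (ENSG00000139269, chromosome 12, 57452323 to 57459280, plus strand) encodes the beta E subunit of activin E, a liver-secreted factor known as a target of the stress factor ATF4. It had 0.276, 0.160, 0.258 and 0.140 CPM in the parental and 0.537, 0.686, 0.709 and 0.632 CPM in the Rho0 libraries. All Rho0 libraries were above all parental ones, a pattern seen for 26.5% of genes tested, but no library reached 1 CPM. INHBE rose 3.04-fold (log2 fold change 1.60, SE 0.30, edgeR adjusted p = 0.0010) on 3 to 6 counts in each parental library and 9.1 to 28.0 in each Rho0 library.

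GDF15 (ENSG00000130513, chromosome 19, 18374731 to 18389176, plus strand) was already abundant in cells with respiration. It had 182, 196, 177 and 190 CPM in parental replicates 1 to 4 and 230, 220, 190 and 183 CPM in Rho0 replicates 1 to 4. Rho0 replicates 1 and 2 lay above every parental library and replicates 3 and 4 inside the parental range, so the groups overlapped. The log2 fold change of 0.14 did not pass the test (SE 0.09, edgeR adjusted p = 0.18), and its 95% interval allows a fold between 0.968 and 1.26. Its receptor gene GFRAL had 1 count over the parental and 5.1 over the Rho0 libraries.

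TGFB1 (ENSG00000105329, chromosome 19, 41301587 to 41353911, minus strand), the main isoform of vascular cells, had the highest CPM of the 10 genes. It held 528, 583, 658 and 498 CPM in the parental and 787, 709, 651 and 515 CPM in the Rho0 libraries. The groups overlapped: Rho0 replicate 4 lay below parental replicates 1 to 3, and Rho0 replicate 3 below parental replicate 3. The log2 fold change was 0.23 (SE 0.13, edgeR adjusted p = 0.17; 95% interval of the fold 0.956 to 1.44). Without Rho0 replicate 4 it was 0.33 and called (edgeR adjusted p = 0.0173). TGFB3 (ENSG00000119699, chromosome 14, 75958099 to 75982991, minus strand) is the isoform of palate and lung development. It had 2.34, 1.79, 2.06 and 1.77 CPM in parental and 2.24, 2.63, 2.74 and 2.07 CPM in Rho0 libraries, which overlapped (log2 fold change 0.27, SE 0.16, edgeR adjusted p = 0.19; 95% interval of the fold 0.937 to 1.55). TGFB1 and TGFB3 overlap genes on the opposite strand in GENCODE 29 (HNRNPUL1, CCDC97 and TMEM91, and IFT43), and strand use in the counting is not given, so part of their counts is uncertain.

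The calls of TGFB1, TGFB3 and GDF15 depended on scaling, and those of TGFB1 and GDF15 also on a joint correction for transcript length and GC content. Scaling by library totals without TMM shifted the median of all genes tested from 0.05 to 0.44 on the log2 scale, and then 8572 genes (56.5%) were called higher and 1540 lower. All 6 tested ligands were called higher under it. TGFB1, TGFB3 and GDF15 then stood at 0.62, 0.66 and 0.53, to be read against that median of 0.44. When every library was adjusted for the GC content and length of transcripts, TGFB1 was called at 0.46 (edgeR adjusted p = 4.1e-04) and GDF15 at 0.30 (adjusted p = 9.7e-04). The median GC content of their transcripts is 58.0% and 61.5%, against 39.0% for TGFB2 and 48.3% for INHBA. In Rho0, the order of the libraries by TGFB1 and by GDF15 was the order by the GC measure, and the order by INHBA was its reverse. In the parental line the order by TGFB1 was that of the GC measure, and the order by GDF15 was not. Length and GC content were corrected together, and the part of each was not tested.

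**Figure D2:**
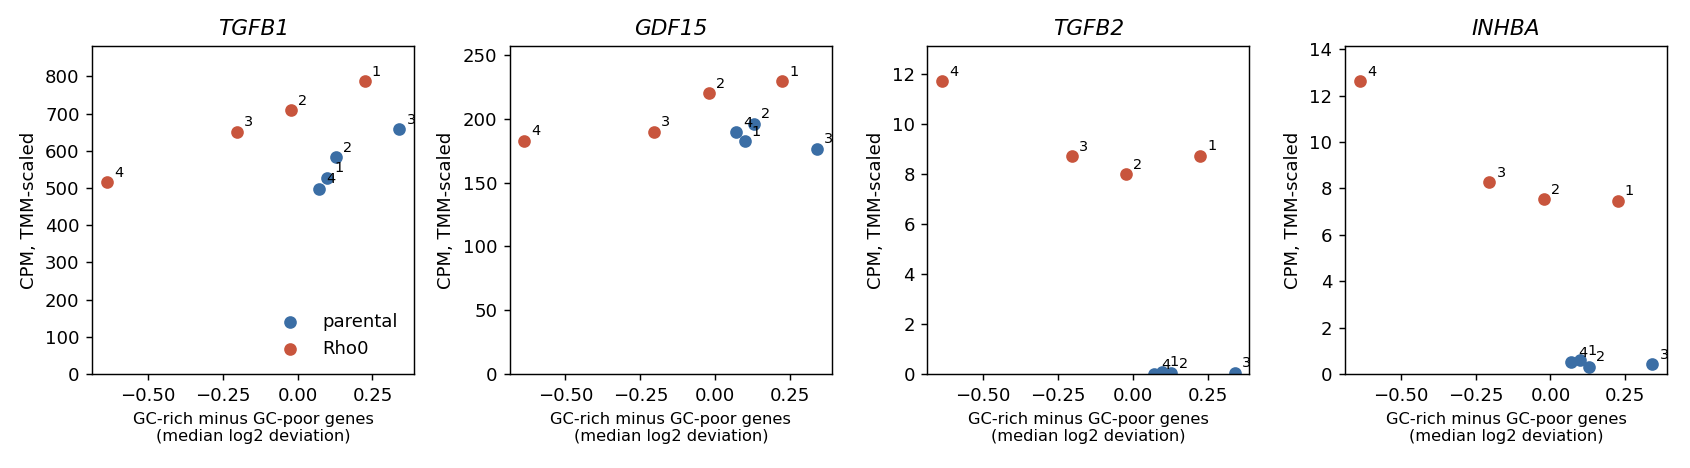
CPM of TGFB1, GDF15, TGFB2 and INHBA (vertical axes, from 0) against the median log2 deviation of GC-rich minus GC-poor genes in the same library; numbers are replicates, parental in blue and Rho0 in red. Rho0 replicate 4, at -0.64 on the GC measure, has the lowest Rho0 level of TGFB1 and GDF15 and the highest of TGFB2 and INHBA.

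The remaining 4 genes were too low to pass the filter. BMP2, a bone and vascular BMP, had no count in any library, which allows up to 0.0676 to 0.226 CPM at 3 counts per library. BMP4, a mesoderm inducer, had 0.413, 0.477, 0.258 and 0.372 CPM in parental and 0.308, 0.301, 0.300 and 0.383 CPM in Rho0 libraries, 4 to 17 counts each. INHBB, the beta B subunit of activin B, had 8 counts over the parental and 2 over the Rho0 libraries. FST encodes follistatin, which binds and neutralises activins. It had 0.282, 0.201, 0 and 0.0488 CPM in parental and 0.490, 0.246, 0.300 and 0.546 CPM in Rho0 libraries, with overlapping groups. Tested without a filter, FST had a log2 fold change of 1.59 and missed the threshold (edgeR adjusted p = 0.051), INHBB had -2.10 (adjusted p = 0.13) and BMP4 had -0.20 (adjusted p = 0.70).

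Per kb of transcript (the median GENCODE 29 transcript of each gene), TGFB1 and GDF15 led both lines, with 1183 ± 147 and 331 ± 15.3 CPM per kb in the parental and 1390 ± 239 and 366 ± 40.6 in the Rho0 libraries (SD, n = 4). TGFB3 came next in the parental line at 2.78 ± 0.376, followed by BMP4 at 0.341 ± 0.0829, INHBA at 0.230 ± 0.0616, FST at 0.186 ± 0.184 and INHBE at 0.183 ± 0.0601. The last 3 did not differ beyond their spread. INHBB at 0.0278 ± 0.0235 and TGFB2 at 0.0141 ± 0.0117 were lowest before BMP2 at 0. In Rho0, INHBA stood at 4.48 ± 1.23, TGFB3 at 3.38 ± 0.444 and TGFB2 at 2.87 ± 0.512, and the libraries of neighbours in this order overlapped. INHBE at 0.561 ± 0.0670 and FST at 0.555 ± 0.204 did not differ beyond their spread and came ahead of BMP4 at 0.291 ± 0.0360 and INHBB at 0.00510 ± 0.00643. With the longest transcript in place of the median, TGFB1 and GDF15 came closer, at 205 and 155 in the parental line, and TGFB2 led INHBA and TGFB3 in Rho0, at 1.84, 1.48 and 0.895.

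Among 24 other ligands of the superfamily, 7 were tested and 4 were called higher and 0 lower. Of those 4, GDF6 and GDF7 passed the filter on low counts through the Rho0 libraries alone and so had to be higher, and nothing is read from the count. GDF6, a BMP-type factor of joint and eye development, had 3 counts over the parental libraries and 7.30 ± 0.392 CPM in Rho0 (SD, n = 4), 213 times as much by counts (counting interval 73.0 to 1039). Parental replicate 1 held 2 of those 3 counts, and without it the fitted log2 fold change of GDF6 went from 7.55 to 8.51. Its relative GDF7, named after its values were seen, went from 0.145 ± 0.0552 to 2.65 ± 0.562 CPM. BMP6, the endothelial inducer of hepcidin, had 48.8, 50.1, 51.0 and 49.9 CPM in parental and 95.8, 102, 101 and 96.1 CPM in Rho0 libraries. It rose 1.98-fold (log2 SE 0.06, adjusted p = 3.2e-07 by edgeR) with little spread in either group. GDF11, a relative of myostatin, rose 1.59-fold from 28.2 ± 1.76 CPM.

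Receptors were mostly higher: of 12 tested of 15, 8 were called higher and 0 lower (median 0.55). Over all genes tested, 29.0% were called higher and 25.4% lower (median 0.05). Of the 8, BMPR1B passed the filter through the Rho0 libraries alone. BMPR2, the BMP type II receptor mutated in heritable pulmonary hypertension, went from 115 ± 4.26 to 221 ± 62.96 CPM, the activin receptor ACVR2B from 12.6 ± 1.33 to 22.8 ± 2.29 CPM and the type I receptor TGFBR1 from 15.1 ± 0.363 to 25.5 ± 3.25 CPM. BMPR2 had 155, 206, 218 and 306 CPM in Rho0 replicates 1 to 4, the reverse of their order by the GC measure. With the length and GC correction its log2 fold change went from 0.95 to 0.48, still called. The endothelial receptors at the highest levels were not called with TMM. Without TMM, all 12 tested receptors were called higher, these included, against 56.5% of all genes tested. ENG had 1791 ± 197 and 2122 ± 297 CPM, ACVRL1 597 ± 24.3 and 569 ± 86.7 CPM, and TGFBR2 450 ± 5.48 and 419 ± 43.5 CPM, genes named after their values were seen.

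**Figure D3:**
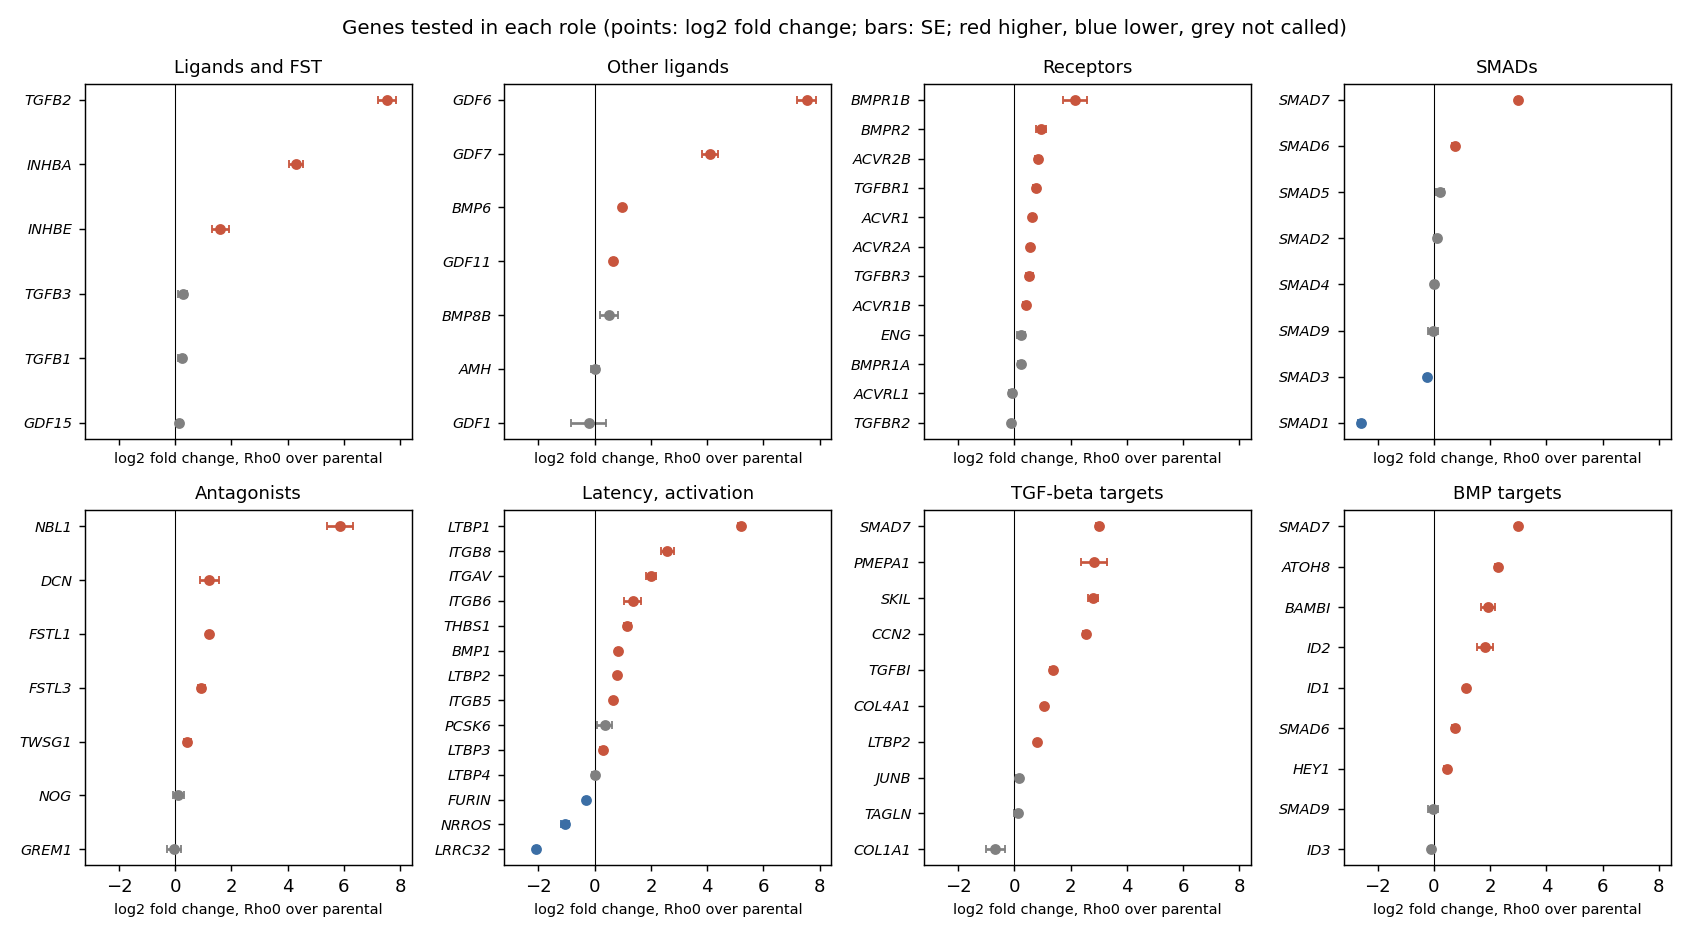
Log2 fold change, Rho0 over parental (horizontal axes, bars are SE), of each gene tested in 8 roles; red is called higher, blue called lower and grey not called. TGFB2 at 7.54 and GDF6 at 7.55 are the farthest to the right, and SMAD1 at -2.58 and LRRC32 at -2.08 the farthest to the left. The SE of TGFB2 and GDF6 rest on 4 and 3 parental counts and give intervals narrower than counting error alone.

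Of 8 SMAD genes, 2 were called higher and 2 lower (median 0.06), near the shares of all genes tested, 29.0% higher and 25.4% lower. SMAD7, the inhibitory SMAD induced by TGF-beta, had 2.43, 2.82, 3.25 and 2.83 CPM in parental and 23.2, 23.1, 22.3 and 22.3 CPM in Rho0 libraries and rose 8.03-fold (log2 SE 0.10, adjusted p = 5.1e-09 by edgeR). SMAD6, which restrains BMP signals, rose 1.66-fold. SMAD1, a transducer of BMP signals, stood at 50.3 ± 2.07 CPM in the parental and 8.36 ± 1.23 CPM in the Rho0 libraries, without overlap. It fell by 2.58 on the log2 scale (SE 0.11, adjusted p = 1.8e-08 by edgeR). SMAD3 was lower at -0.25, but called higher at 0.14 without TMM, where 6 SMAD genes were called higher and 1 lower. With the length and GC correction it stood at -0.11, uncalled (edgeR adjusted p = 0.088). Among 10 intracellular modulators, 6 were called higher and 1 lower (median 0.26), and 9 and 0 without TMM, against the same shares of all genes tested. PMEPA1, 1 of the 6, passed the filter through Rho0 alone. The SMAD repressor SKIL went from 15.9 ± 1.21 to 111 ± 29.2 CPM. In Rho0 replicates 1 to 4 SKIL had 80.7, 104, 107 and 151 CPM, the reverse of their order by the GC measure. With the length and GC correction its log2 fold change went from 2.80 to 2.59, still called.

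Of 14 genes that hold TGF-beta latent or release it, 9 were called higher and 3 lower (median 0.72), and 11 and 2 without TMM. Over all genes tested, 29.0% were called higher and 25.4% lower. ITGB6, 1 of the 9, passed the filter through Rho0 alone. LTBP1, which tethers latent TGF-beta to the matrix, had 3.71, 3.93, 4.33 and 3.21 CPM in parental and 134, 138, 138 and 145 CPM in Rho0 libraries. It rose 36.6-fold (log2 fold change 5.19, SE 0.10, edgeR adjusted p = 2.2e-10), with groups far apart. The cell-surface anchors LRRC32 (GARP), from 65.0 ± 5.56 to 15.4 ± 1.37 CPM, and NRROS, from 19.6 ± 1.43 to 9.45 ± 1.76 CPM, fell. NRROS overlaps PIGX on the same strand, so its counts are less certain. Relative to LRRC32, LTBP1 went from 5.82 ± 0.242% to 906 ± 106% per count within a library. In Rho0 replicates 1 to 4 this ratio was 792, 854, 942 and 1034%, again the reverse of their order by the GC measure. The activating integrin chains ITGB8 and ITGAV rose 5.99-fold and 4.03-fold. In Rho0 replicates 1 to 4 ITGB8 had 7.735, 9.765, 10.03 and 15.56 CPM and ITGAV 127.6, 152.2, 159.1 and 233.9 CPM. Both run in the reverse of the order by the GC measure, and the part of base composition was not tested. FURIN, which cleaves the precursors, was lower at -0.31, but stood at 0.09, uncalled, without TMM.

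Of 14 extracellular antagonists other than FST, 7 were tested and 5 were called higher and 0 lower, against 29.0% and 25.4% of all genes tested. NBL1 and DCN, 2 of the 5, passed the filter through the Rho0 libraries alone and had to be higher. FSTL1 rose 2.28-fold from 277 ± 7.68 CPM. FSTL3, a follistatin relative that binds activins, had 16.9, 19.5, 18.6 and 18.5 CPM in parental and 42.6, 37.4, 32.2 and 27.6 CPM in Rho0 libraries. It rose 1.90-fold (log2 fold change 0.93, SE 0.13, edgeR adjusted p = 1.3e-04) without overlap. INHBA rose more than FSTL3, so that INHBA per count was 2.55 ± 0.826% of FSTL3 in the parental and 27.3 ± 12.8% in the Rho0 libraries. In Rho0 replicates 1 to 4 it was 17.5, 20.1, 25.7 and 45.7%, the reverse of their order by the GC measure. The median GC content of the transcripts is 48.3% for INHBA and 64.4% for FSTL3, and the part of base composition was not tested. TWSG1 rose 1.36-fold. NBL1 (0.0613 to 4.22 CPM) and DCN (0.271 to 0.631 CPM) were the others called higher, named after their values were seen, and NBL1 shares sequence with the readthrough gene MINOS1-NBL1, so its value is uncertain.

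Known target genes of these ligands were mostly higher. Of 10 tested TGF-beta and activin targets, 7 were called higher and 0 lower (median 1.21), and 9 and 0 without TMM. PMEPA1, 1 of the 7, passed the filter through Rho0 alone. Of all genes tested, 29.0% were called higher (median 0.05), and 56.5% without TMM. JUNB (log2 fold change 0.175), TAGLN (0.116) and COL1A1 (-0.669), named after their values were seen, were not called. CCN2, a matricellular growth factor, had 18.7, 19.1, 21.9 and 22.6 CPM in parental and 127, 126, 113 and 113 CPM in Rho0 libraries, without overlap. It rose 5.83-fold (log2 fold change 2.54, SE 0.09, edgeR adjusted p = 6e-09). Of 9 tested BMP targets, 7 were called higher and 0 lower (median 1.14), and 8 and 0 without TMM. ID3 (log2 fold change -0.088), named after its values were seen, was not called. ATOH8 rose 4.86-fold and ID1 2.21-fold, from 73.5 ± 3.28 CPM. SMAD7 is in both lists and SKIL in the first. Other pathways also regulate these genes, and signalling by the ligands was not measured.

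**Figure D4:**
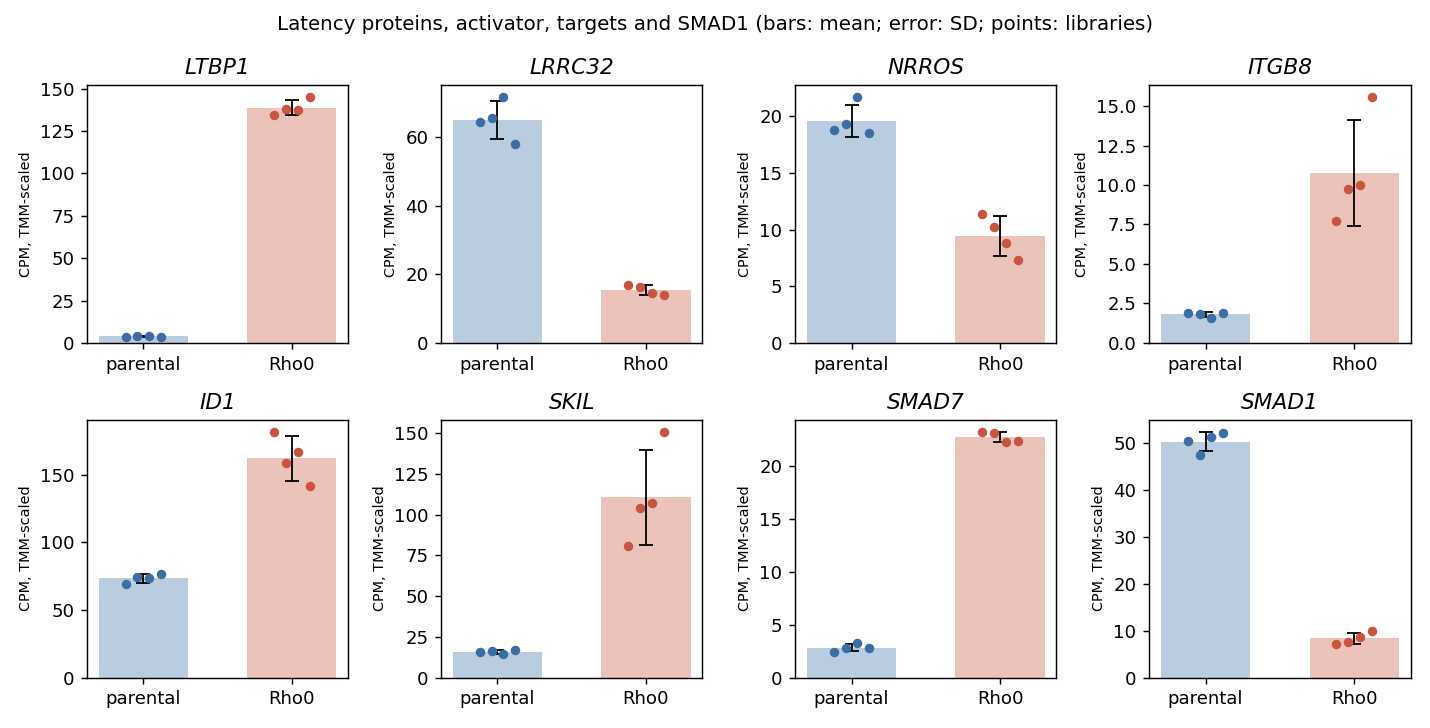
CPM of LTBP1, LRRC32, NRROS, ITGB8, ID1, SKIL, SMAD7 and SMAD1 in each library (points), with the group mean (bar) and SD (error bar), n = 4 per group. LTBP1, ITGB8, ID1, SKIL and SMAD7 are higher in all 4 Rho0 libraries, and LRRC32, NRROS and SMAD1 lower.

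GDF15 and INHBE were set beside the factors known to induce them. Of 10 tested ATF4 and CHOP genes, 7 were called higher and 1 lower (median 0.87; 9 and 0 without TMM). The regulator genes ATF4 and DDIT3 are themselves among the 7. Of all genes tested, 29.0% were called higher and 25.4% lower. ATF4 itself rose 2.00-fold, from 142 ± 3.03 to 284 ± 32.7 CPM, and DDIT3, which encodes CHOP, 2.85-fold from 3.55 ± 0.154 CPM, although it overlaps MARS and MBD6 on the opposite strand. CHAC1 and DDIT4 rose 9.10-fold and 3.45-fold and ATF3 fell by 0.67 on the log2 scale (-0.28, uncalled, without TMM). TRIB3 (log2 fold change 0.01, adjusted p = 0.97) and SESN2 (-0.05, adjusted p = 0.57), named after their values were seen, missed the edgeR threshold as GDF15 did. Of 12 p53 target genes, 6 were called higher and 2 lower (median 0.22; 10 and 1 without TMM). MDM2 rose 2.54-fold, TP53INP1 2.14-fold and ZMAT3 2.04-fold, and BTG2 fell by 0.82 on the log2 scale. SESN1 was lower at -0.33, but stood at 0.05, uncalled, without TMM. Without parental replicate 3, 4 p53 targets were called higher.

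The genes whose log2 CPM followed GDF15 most closely over the 8 libraries, among 8836 protein-coding genes with at least 10 CPM, were ETHE1 (Pearson r = 0.97), METTL2B (r = 0.96) and FAM219B (r = 0.96), of which none was called. For TGFB2 they were the cadherin gene CDH13 (r = 0.998), CRISPLD2 (r = 0.997) and PALLD (r = 0.997), each called higher. Genes picked for following a member over these libraries tend to share its call, so these calls support nothing by themselves. CDH13 went from 0.746 to 1.29 CPM over the parental libraries to 22.7 to 36.98 CPM over the Rho0 libraries. These correlations describe 8 libraries in 2 groups, and the genes share those libraries; the part of depth and base composition in them was not tested.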

How the data were processed

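GRCh38 was the build, and kallisto, edgeR and limma the tools, per the submitters' processing notes, where no version or role is stated. Annotation release and strand setting: not given in the sources used here. Estimated counts were deposited by the authors for 38010 gene IDs, and a log2 table for 12885 IDs. Symbols were found for 34284 IDs in the supplied gene table and GENCODE 29. Estimated counts were rounded and fitted in edgeR 4.0.16 (R 4.3.3): TMM, filterByExpr with a minimum count of 10, quasi-likelihood F-test on group, Benjamini-Hochberg over 15184 genes, threshold 0.05. Scaling without TMM means library totals alone. The SE is the log2 fold change divided by the square root of F. Intervals and floors (3 counts) on counts cover counting error only. Alternatives used DESeq2 1.42.0 and limma 3.58.1. The fit was tested on simulated data. The members, lists and alternatives were chosen with earlier results of these data known. 1 target gene was left out of the lists and is not reported here. Named genes were all members and, per list, up to 3 called genes in each direction with the largest change and at least 5 CPM, plus regulators of a member. P-values measure the spread between cultures of 1 line per group. Replicates differed by more than sampling noise (chi-square per degree of freedom of at least 4.21). Figures were drawn with matplotlib 3.10.9.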

Additional observations from a re-analysis of the deposited data

Results flagged for a closer look

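In 124 groups of 4 libraries, over the members and the other named genes, 9 values stood apart from the other 3 of their group by more than 0.829 of the group's range, where chance flags about 5% of groups. INHBA stood at 12.6 CPM in Rho0 replicate 4, above 7.47 to 8.27 CPM in the other Rho0 libraries. BMP4 stood at 0.383 CPM in the same library, and BTG2 was lowest there at 52.95 CPM. In parental replicate 3, SMAD3 (277 CPM), ESAM (458 CPM) and KRT18 (991 CPM) were high and TEK (86.9 CPM) was low. In parental replicate 1, ACVR2B was high at 14.6 CPM and GFRAL had its single parental count, 0.0461 CPM. Rho0 replicate 4 and parental replicate 3 were also the lowest and the highest library on the GC measure, at -0.64 and 0.34; the part of base composition in these values was not tested.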

How the results depend on the processing

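TGFB2 and INHBA kept direction and call in 18 of 18 alternatives and INHBE in 16 of 16; INHBE is not in the deposited log2 table and did not pass the filter of 50 counts in 4 libraries. Lowest log2 fold changes were 3.32, 2.77 and 1.46. Scaled by library size alone, TGFB1 (0.62), TGFB3 (0.66) and GDF15 (0.53) became called, 6 members and 8572 genes were called higher, and 1540 genes lower. With the transcript length and GC correction TGFB1 (0.46) and GDF15 (0.30) became called, 5 members in all. Leaving out a library put TGFB1 between 0.12 and 0.33, called without Rho0 replicate 4 alone. No member was called lower in any alternative. Among other named genes, SMAD3 (0.139), FURIN (0.085) and SESN1 (0.054) turned sign by library size alone, and 13 values lost their call, 7 of them for SKI. List counts, recomputed after seeing the data, moved by over 1.5 times in 22 cases and not in 482, among them SMADs called higher (6 by library size alone) and antagonists (3 with the filter of 50 counts). With a replicate block 3 members were called higher, genes called higher across the whole table numbered 4215 and 3802 were genes called lower across the whole table; replicate numbers did not pair the samples (correlations of same-numbered deviations -0.13 to 0.16, own number best in 2 of 4), and no member's call changed. Depth limits BMP2, BMP4, INHBB and FST.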
